A study of Mus musculus with 29 samples.

Results

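The genes described are 9 known from the fetal liver, several of which the yolk sac endoderm also makes: Afp, Ttr, Trf, Alb, Ahsg, Fgg, Proc, Spink1 and Gckr. They were taken by name, through the accession of their probes on a single-colour expression array, and are 9 of the 20956 genes with a named probe. Of the 9, 8 could be tested, among 16333 genes tested in all; the albumin gene, Alb, could not, because it was at background in almost all samples. The study asked whether naive mouse pluripotent cells can be turned into an endoderm that keeps growing, and set that endoderm beside other cultures on 29 arrays.

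ESC, the starting point, are undifferentiated cells of HRHnG, a double reporter line, cultured in 2i with LIF, a medium of kinase inhibitors and a cytokine that holds the naive state. Diff are HRHnG cells that spent 7 to 8 days with Activin, CHIRON (a GSK3 inhibitor) and LIF. Mid and Late are endoderm cultures grown on from Diff, called nEnd, at passage 7 to 10 and passage 14 to 15; each of their replicates came from its own round of differentiation and passaging. XEN are extraembryonic endoderm cells of a separate line, the only one of its kind here, in their usual medium. EpiSC are epiblast stem cells, the primed state, derived from stem cells of a line spelled HRHNG in the labels and taken here as HRHnG, and ADE are EpiSC after 4 days of differentiation towards anterior definitive endoderm. Embryonic stem cells of 3 other lines, HVMC, E14 and E14-NanogGFP, were adapted over 3 or more passages to 2i and LIF, which gave 2iL, or to Activin, CHIRON and LIF in N2B27, which gave NACL. All samples are labelled male. ADE and NACL hold 4 arrays and the other groups 3. The replicates of 2iL and NACL span those 3 lines, with HVMC on 2 of the NACL arrays. What separates the replicates of ESC, Diff, XEN, EpiSC and ADE is not stated, so their spread may be technical. All p-values rest on a spread pooled over the 29 arrays of all 9 groups, including the lines of 2iL and NACL. They speak of these samples only.

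The yolk sac's visceral endoderm and the fetal liver both secrete plasma proteins: albumin and its fetal relative alpha-fetoprotein carry small molecules, transthyretin carries thyroid hormone and retinol-binding protein, and transferrin carries iron. Both tissues switch such genes on under transcription factors of the HNF4, FOXA and GATA families. The liver itself arises later from definitive endoderm, a separate lineage, so the same gene can be reached by either route.

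Levels are log2 of the array signal, with each array's 75th percentile of signal set to 0, so a level above 0 belongs to the brightest probes of an array. The Feature Extraction software marks whether a spot is well above the background of its array. Levels are compared only within a gene, since probes differ in brightness. Differences are on the same log2 scale, with a standard error (SE) and limma's p-value adjusted over all genes tested, and a gene is called at an adjusted p under 0.05. These are bulk samples, so fewer cells carrying a gene and less RNA per cell cannot be told apart. The share of probes well above background ran from 50.1% to 80.1% over the arrays, and the lowest correlation between replicate arrays of a group was 0.956. ESC, Diff, Mid, Late and XEN form one array set, and 2iL, EpiSC, ADE and NACL another; no slide and no scan day holds arrays of both, and the software version differs between them.

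The sequences just upstream of the start of 3 genes are shown because Afp and Alb lie next to each other on chromosome 5 and behave differently, while Gckr, elsewhere on that chromosome, was bright in ADE only. They are the 250 bases before the annotated start, on the plus strand, from RefSeq promoters of assembly GRCm38.p6. Capitals mark the motif GTTAAT, which recurs in promoters of liver genes, the GATA motif AGATAA and the TATA box TATAAA, searched on both strands.
Afp, chr5:90490464-90490713: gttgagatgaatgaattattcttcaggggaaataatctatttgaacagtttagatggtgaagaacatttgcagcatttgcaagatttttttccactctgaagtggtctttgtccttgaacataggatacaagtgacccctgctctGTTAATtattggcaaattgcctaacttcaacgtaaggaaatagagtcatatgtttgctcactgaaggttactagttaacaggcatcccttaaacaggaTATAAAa
Alb, chr5:90460620-90460869: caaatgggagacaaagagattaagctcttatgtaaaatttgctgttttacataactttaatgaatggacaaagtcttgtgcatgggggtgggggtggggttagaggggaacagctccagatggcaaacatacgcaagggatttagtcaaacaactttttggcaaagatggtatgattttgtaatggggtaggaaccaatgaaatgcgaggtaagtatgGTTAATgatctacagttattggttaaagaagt
Gckr, chr5:31297313-31297562: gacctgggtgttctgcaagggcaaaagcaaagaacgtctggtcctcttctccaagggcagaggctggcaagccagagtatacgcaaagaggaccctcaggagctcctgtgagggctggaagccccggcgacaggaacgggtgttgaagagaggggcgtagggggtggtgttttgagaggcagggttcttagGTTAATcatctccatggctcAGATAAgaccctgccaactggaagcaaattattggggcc
The motif GTTAAT stands at -105 to -100 in Afp, -32 to -27 in Alb and -59 to -54 in Gckr, counting the last base before the start as -1. It is found in 6.52% of 27025 RefSeq promoter windows of this length. AGATAA, found in 10.3% of them, stands in Gckr at -39 to -34, and TATAAA, found in 13% of them, stands in Afp at -7 to -2; no 2 of these matches overlap. The HNF4 motifs CAAAGTCCA and CAAAGTTCA (0.722% of windows), the FOXA motif TGTTTAC (3.09%) and the C/EBP motif TTGCGCAA (0.17%) match none of these 3 windows. The windows of Ahsg (chr16:22891765-22892014) and Fgg (chr3:83007474-83007723) hold none of the motifs searched. A match is a run of letters, not evidence of binding.

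The 9 genes did not move as one block. Afp, which encodes alpha-fetoprotein, and Ttr, which encodes transthyretin, came on in endoderm made from naive cells. Both were also well above background in XEN and stood far lower in ADE, which lies in another array set. The direct test between the inductions, given below, passed for Ttr and not for Afp. Gckr, Proc and Fgg were highest in ADE among the 9 groups, and Proc was also higher in Diff and in XEN than in ESC. Spink1 was high in all endoderm groups, Ahsg was present everywhere except in ADE, Trf was highest in NACL, and Alb stayed near background throughout.

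**Figure D1:**
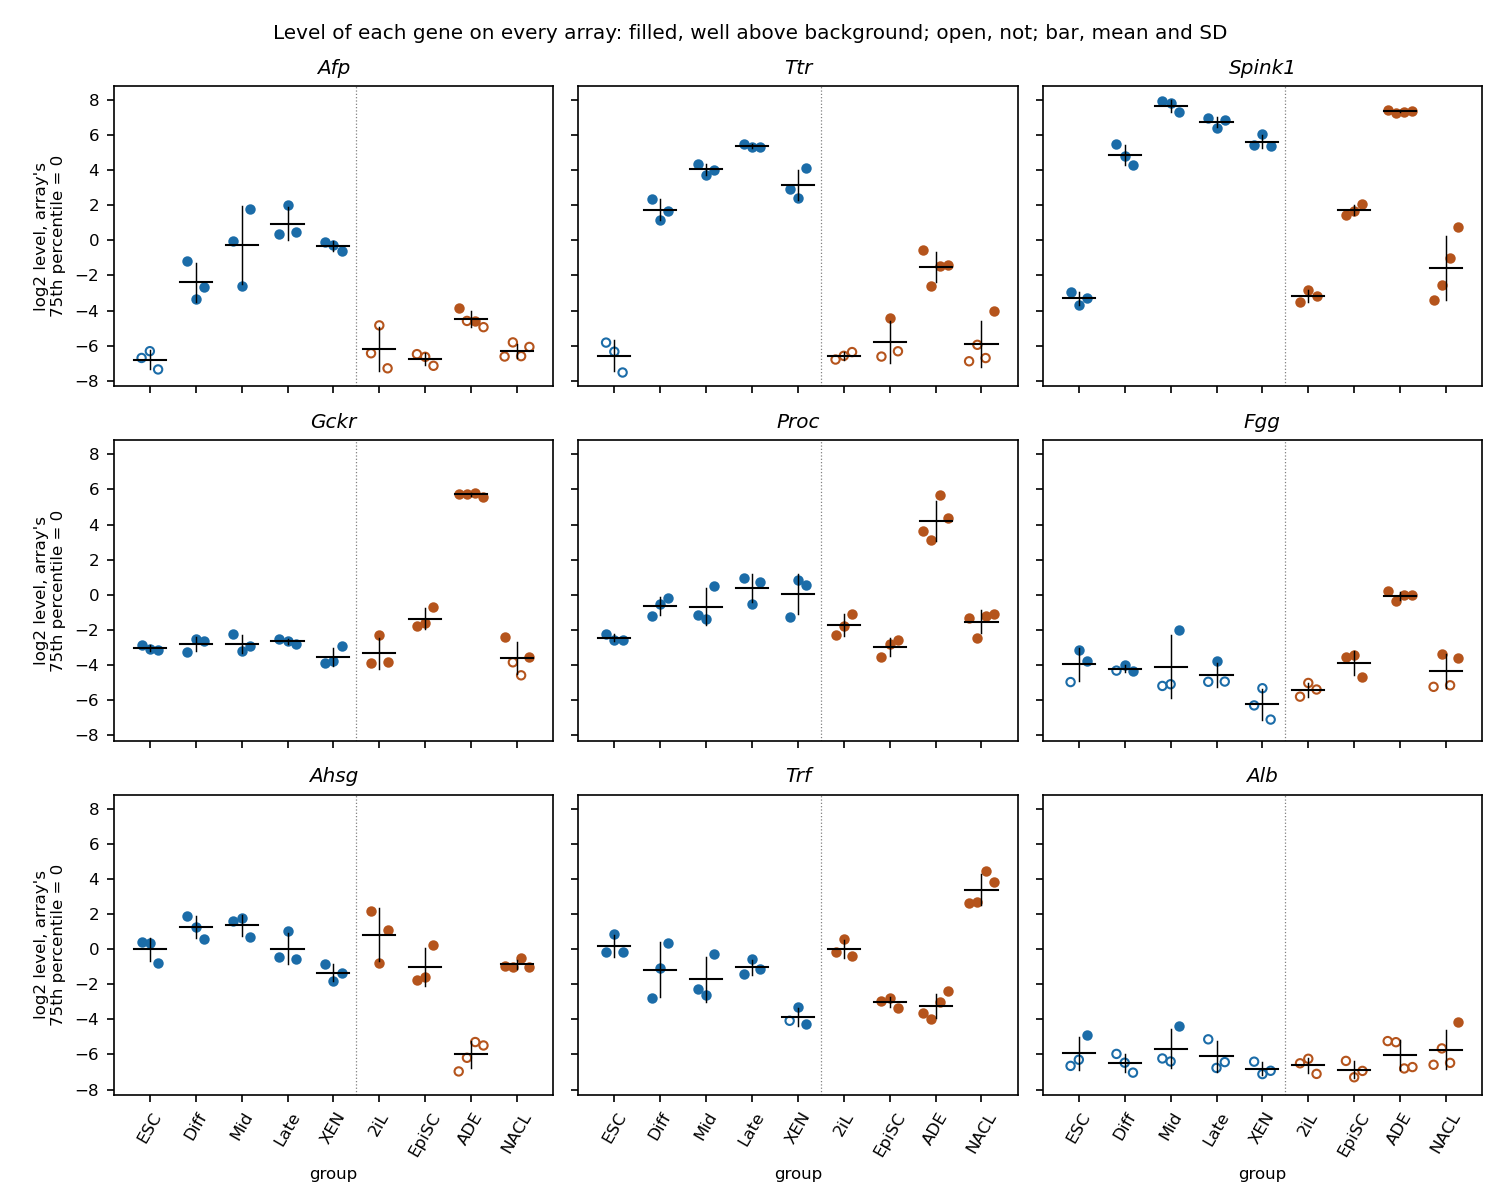
Level of each of the 9 genes on every array (vertical axis, log2 with each array's 75th percentile at 0) by group (horizontal axis); filled points are well above background, open points are not, and bars give the group mean and SD. The dotted line separates the array sets; Ttr climbs from Diff to Late, Gckr is at 5.56 or higher on the 4 ADE arrays and at -0.67 or lower on all others, and Trf is highest on the 4 NACL arrays.

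Ttr was at background in ESC, with levels of -5.83, -6.34 and -7.53 and no array well above background. In Diff it stood at 2.36, 1.16 and 1.69, and in Mid at 4.35, 3.74 and 4.02. In Late it stood at 5.47, 5.30 and 5.33, the highest level of any group. Each step from ESC to Diff to Mid to Late was free of overlap between arrays. XEN lay at 2.90, 2.43 and 4.09 and overlapped Mid. ADE lay at -0.56, -2.63, -1.48 and -1.43, well above background on 4 of 4 arrays but below every Diff array. In EpiSC 1 of 3 arrays was well above background (-4.40), in NACL 1 of 4 (-4.03), and in 2iL none. The EpiSC and the NACL array in question were those with the most probes well above background of their groups, 72.3% and 80.1%; the part this played was not tested.

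Afp followed a similar order at lower levels. It was well above background on no array of ESC, 2iL, EpiSC or NACL. Diff lay at -1.17, -3.35 and -2.68, and Late at 0.36, 2.02 and 0.49. Mid was the most scattered group of any gene here, at -0.03, -2.62 and 1.80 (SD 2.22, n = 3), and its arrays overlapped Diff, Late and XEN. XEN was even, at -0.08, -0.29 and -0.64. In ADE only 2 of 4 arrays were well above background, at -3.86 and -4.57, and all 4 lay below every Diff array. The group means of Afp and Ttr had a Pearson correlation of 0.986 over the 9 groups, the highest of any pair among the 8 tested genes. Both genes are read on the same arrays, so this is a description only.

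Alb lies next to Afp in the annotation, with Afm, the gene of afamin, on the far side of Afp. Alb was well above background on 3 of 29 arrays, ESC 3 (-4.87), Mid 3 (-4.40) and NACL 4 (-4.17). Each of these arrays had the most probes well above background of its group, 71.1%, 66.1% and 80.1%; whether that played a part was not tested. No group mean of Alb exceeded -5.67, and the ranges of all neighbouring groups overlapped. Afm was well above background on 1 Mid array only and was not tested either. Thus in Late, where Afp reached 0.96 ± 0.92 (SD, n = 3), Alb was not well above background on any of the 3 arrays.

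Spink1 encodes a secreted inhibitor of trypsin made in the pancreas and gut. It was measured on all 29 arrays. ESC lay at -2.95, -3.67 and -3.28, and 2iL at -3.49, -2.83 and -3.20. Diff rose to 5.47, 4.80 and 4.31, Mid to 7.92, 7.82 and 7.29, and Late stood at 6.95, 6.42 and 6.86. XEN lay at 5.43, 6.04 and 5.37, between Diff and Late, and overlapped Diff. ADE was even, at 7.44, 7.27, 7.34 and 7.38, and overlapped Mid. EpiSC, at 1.45, 1.66 and 2.04, already lay above every naive stem cell array. The NACL arrays were the most scattered, at -3.38 and -2.57 for HVMC, -1.02 for E14 and 0.75 for E14-NanogGFP, so the spread there runs across lines as well as replicates.

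Gckr encodes a regulatory protein of sugar metabolism in liver cells. ADE stood at 5.76, 5.71, 5.81 and 5.56. EpiSC lay at -1.81, -1.62 and -0.67, above the arrays of all other groups but ADE. The remaining groups had means from -3.61 (NACL, 2 of 4 arrays well above background) to -2.65 (Late), and neighbours in that order overlapped. Diff, at -3.26, -2.49 and -2.65, overlapped ESC, at -2.85, -3.10 and -3.15.

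Proc encodes protein C, a plasma protease that, once activated, shuts down clotting. In ADE it stood at 3.62, 3.10, 5.71 and 4.35, above all arrays of the other groups. EpiSC was the lowest group, at -3.57, -2.82 and -2.60. In the first array set it went from -2.22, -2.56 and -2.59 in ESC to -1.20, -0.54 and -0.20 in Diff, without overlap. Mid (-0.67 ± 1.04, SD, n = 3), Late (0.37 ± 0.78, SD, n = 3) and XEN (0.04 ± 1.12, SD, n = 3) overlapped Diff and each other.

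Fgg encodes the gamma chain of fibrinogen, the precursor of fibrin clots. ADE stood at 0.19, -0.38, -0.04 and -0.04, above all other arrays. Elsewhere it was near background: it was well above background on 2 of 3 arrays in ESC and Diff, 1 of 3 in Mid and Late, none in XEN and 2iL, 3 of 3 in EpiSC and 2 of 4 in NACL. The highest array outside ADE was Mid 3, at -2.02, while the other Mid arrays were not well above background. Mid 3 was also the highest Mid array for Afp, Alb, Trf and Proc.

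The 3 fibrinogen chains, which assemble into one protein, differed in where they were seen. Fgb, the beta chain, stood at 0.69 ± 0.08 (SD, n = 3) in Diff, 1.68 ± 1.68 in Mid and 1.22 ± 0.53 in Late, and at -3.37 ± 0.65 (SD, n = 4) in ADE. Fga, the alpha chain, was measured on all arrays with group means from -2.89 to -1.83; it was picked out after its values were seen. So the beta chain was higher in endoderm from naive cells than in ADE, and the gamma chain was highest in ADE. These groups lie in different array sets.

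Ahsg encodes fetuin-A, a plasma glycoprotein of fetal liver that keeps calcium phosphate from precipitating. It was well above background on every array except those of ADE. ESC lay at 0.43, 0.32 and -0.79, Diff at 1.89, 1.29 and 0.61, and Mid at 1.63, 1.78 and 0.68. In 2iL it ran from -0.77 to 2.18 and in EpiSC from -1.74 to 0.24. The ADE arrays stood at -6.96, -6.19, -5.29 and -5.49, none well above background. XEN was the lowest of the groups that kept it, at -0.85, -1.81 and -1.33.

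Trf encodes transferrin, the iron carrier of plasma. NACL stood at 2.64 and 2.67 (HVMC), 4.45 (E14) and 3.81 (E14-NanogGFP), above all other arrays. ESC, at -0.16, 0.89 and -0.17, and 2iL, at -0.15, 0.57 and -0.41, overlapped. Diff scattered from -2.78 to 0.33 and overlapped Mid and Late. XEN, at -4.08, -3.27 and -4.25, ADE, from -3.98 to -2.38, and EpiSC, from -3.32 to -2.78, were the lowest groups. Another, dimmer probe of Trf gave the same order of the 9 group means, with NACL at the top and XEN, at background, at the bottom.

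Diff minus ESC asks how the genes responded when naive cells were turned to endoderm. Of the 8 tested genes 4 rose and none fell, where 42.4% of all genes tested were called, 23.5% higher and 18.9% lower. Spink1 rose by 8.16 ± 0.60 (SE, n = 3 and 3; adjusted p = 2.46e-10), a 286-fold change. Ttr rose by 8.30 ± 0.65 (adjusted p = 6.97e-10); since ESC was at background, the measured bound is at least 106-fold higher. Such bounds set each dim array at the higher of its own signal and the lowest signal of any probe well above background. Afp rose by 4.39 ± 0.76 (adjusted p = 5.08e-05), at least 6.05-fold, and Proc by 1.81 ± 0.62 (adjusted p = 0.0217). With normexp background correction, which lifts low signals, Afp (0.73, adjusted p = 0.201) and Proc (0.99, adjusted p = 0.0987) were not called, and Ahsg was (1.11, adjusted p = 0.0434). Proc was also not called without ESC 2, ESC 3, Diff 2 or Diff 3, with adjusted p from 0.0548 to 0.0791. Ahsg (1.27 ± 0.63, adjusted p = 0.111, no overlap of arrays), Trf (-1.36 ± 0.66, adjusted p = 0.102), Fgg (-0.24 ± 0.67) and Gckr (0.23 ± 0.44) did not pass. Without Diff 3, the highest Diff array of Trf, the difference of Trf was -2.11 and passed (adjusted p = 0.0134).

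ADE minus EpiSC is the same question for definitive endoderm made from primed cells. Here 6 of the 8 genes rose and 1 fell, where 37.6% of all genes were called, 16.9% higher and 20.7% lower. Proc rose by 7.19 ± 0.58 (SE, n = 4 and 3; adjusted p = 2.51e-09), a 146-fold change, and Gckr by 7.08 ± 0.41 (adjusted p = 2.52e-11), 135-fold. Spink1 rose by 5.64 ± 0.56 (49.8-fold), Ttr by 4.26 ± 0.61, with 1 of 3 EpiSC arrays well above background, and Fgg by 3.83 ± 0.63 (14.2-fold); their adjusted p-values were 4.55e-08, 7.06e-06 and 3.8e-05. Ahsg fell by 4.96 ± 0.59 (adjusted p = 6.23e-07) to background, at least 15.1-fold lower. Afp rose by 2.26 ± 0.71 (adjusted p = 0.0139), at least 1.45-fold, but it was not called without EpiSC 3 (adjusted p = 0.0566), with normexp correction (0.43, adjusted p = 0.441) or in the authors' own processed values (0.42, adjusted p = 0.54). Trf was the gene that did not pass (-0.22 ± 0.61, adjusted p = 0.826).

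**Figure D2:**
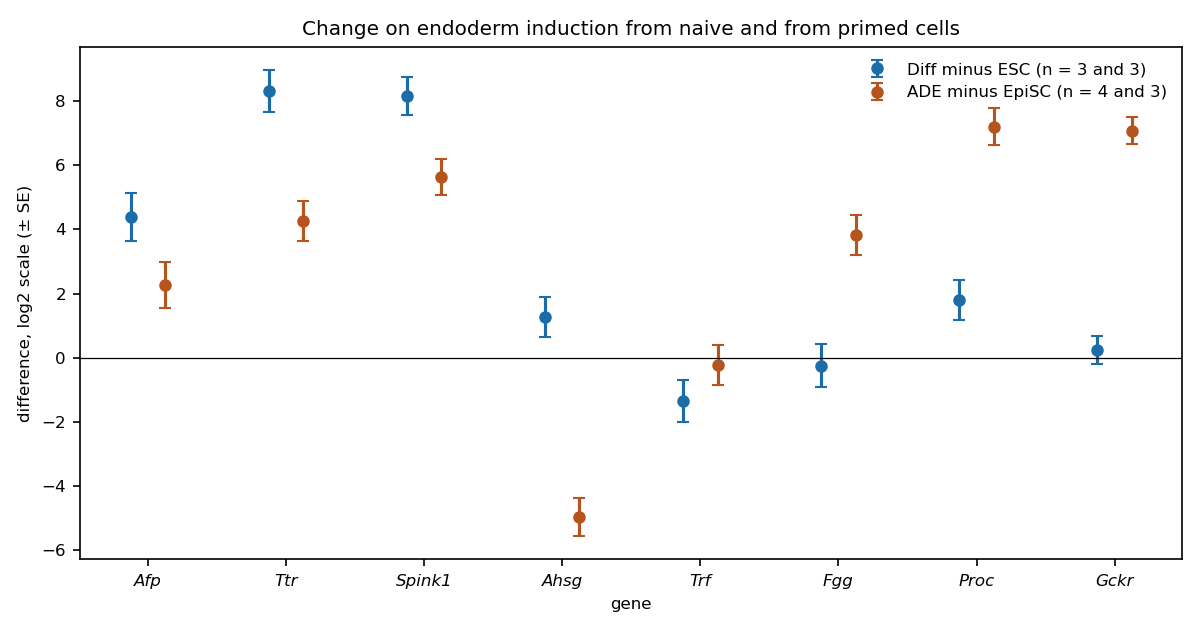
Difference on the log2 scale (vertical axis, with its standard error) for the 8 tested genes (horizontal axis) in Diff minus ESC and in ADE minus EpiSC. Ttr is higher in the first by 4.04, Gckr in the second by 6.85, and Ahsg has opposite signs.

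The difference between these 2 inductions was tested directly, each difference being taken within its own array set. It passed for 6 of the 8 genes, where 36.7% of all genes passed, 21.9% with a larger and 14.9% with a smaller change from naive cells. The change from naive cells exceeded that from primed cells by 6.23 ± 0.86 (SE) for Ahsg (adjusted p = 5.6e-06), 4.04 ± 0.89 for Ttr (adjusted p = 0.00101) and 2.52 ± 0.82 for Spink1 (adjusted p = 0.0189). Spink1 started from a mean level of 1.72 in EpiSC and -3.30 in ESC, and its call was lost without Diff 1 (2.21, adjusted p = 0.0542), with normexp (0.79, adjusted p = 0.21) and in the authors' values (1.37, adjusted p = 0.0846). It was smaller by 6.85 ± 0.60 for Gckr (difference -6.85, adjusted p = 1.11e-08), by 5.39 ± 0.85 for Proc (difference -5.39, adjusted p = 2.83e-05) and by 4.07 ± 0.92 for Fgg (difference -4.07, adjusted p = 0.00125). Afp (2.13 ± 1.04, adjusted p = 0.115) and Trf (-1.13 ± 0.90, adjusted p = 0.352) did not pass; Afp did in the fit of these 4 groups alone (adjusted p = 0.0255).

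Growth of the endoderm from Diff to Mid raised 3 of the 8 genes, where 29.1% of all genes were called, 12.3% higher and 16.8% lower. Spink1 rose by 2.82 ± 0.60 (SE, n = 3 and 3; adjusted p = 0.00112), 7.04-fold, and Ttr by 2.30 ± 0.65 (adjusted p = 0.0102), 4.93-fold. Without Diff 2 the adjusted p of Ttr was 0.0538, and the number of genes called fell from 3 to 1. Afp rose by 2.12 ± 0.76 (adjusted p = 0.0381), but its arrays overlapped. Its difference was 0.94 within scan day 1 and 4.47 within scan day 2, where Mid 3 and Diff 3 were read. Without Mid 3 it was 1.08 (adjusted p = 0.287), and it was also not called without Diff 2, Diff 3 or Mid 1 (adjusted p from 0.102 to 0.173), with arrays centred on the median (adjusted p = 0.0633), without the filter on dim probes (adjusted p = 0.0511), or in fits of the array set (adjusted p = 0.0974) or these groups alone (adjusted p = 0.242). The other 5 genes differed by -0.55 to 0.11.

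From Mid to Late none of the 8 genes was called by limma, where 6.85% of all genes were (3.78% higher, 3.07% lower); 1 of them, Ahsg (-1.34 ± 0.63), had an unadjusted p under 0.05. Ttr was higher in Late by 1.33 ± 0.65 (adjusted p = 0.243) on all arrays, and Spink1 was lower by 0.93 (difference -0.93 ± 0.60, adjusted p = 0.402), both without overlap of arrays. Ttr passed in the fit of Mid and Late alone (adjusted p = 0.0402), with normexp (1.28, adjusted p = 0.0124) and in the authors' values (1.20, adjusted p = 0.0137).

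Whether the expanded endoderm resembles the established XEN line was the question of nEnd minus XEN, with nEnd the mean of Mid and Late. Of the 8 genes 5 were higher in nEnd and none lower, where 41.1% of all genes were called, 16.6% higher and 24.5% lower. The difference in Trf was 2.49 ± 0.57 (SE, n = 6 and 3), 5.61-fold, with an adjusted p of 0.00111, and that in Ahsg was 2.02 ± 0.55 (adjusted p = 0.00455), 4.07-fold. Spink1 was higher by 1.60 ± 0.52 (adjusted p = 0.0162); without XEN 1 or XEN 3 its adjusted p was 0.0617 and 0.0644. Ttr was higher by 1.56 ± 0.56 (adjusted p = 0.03) but overlapped XEN, and its difference was 2.17 within scan day 1 and -0.07 within scan day 2, where Mid 3 met XEN 3. Without Mid 1, XEN 1 or XEN 2 Ttr was not called, nor with arrays centred on the median (1.21, adjusted p = 0.0612), and without XEN 1 the count of genes called was 3. Fgg was higher by 1.91 ± 0.58 (adjusted p = 0.0108), a bound of at least 1.35-fold, with 2 of 6 nEnd arrays well above background; it was not called without XEN 3 (1.48, adjusted p = 0.0886), with normexp (0.29, adjusted p = 0.185) or in the fit of these groups alone (adjusted p = 0.0708). Afp (0.67 ± 0.65), Proc (-0.19 ± 0.54) and Gckr (0.82 ± 0.38, adjusted p = 0.0912) did not pass; Gckr passed without XEN 3 (1.11, adjusted p = 0.0472), with the percentile over probes seen on all arrays (1.08, adjusted p = 0.0264) and in the fit of the array set alone (adjusted p = 0.0249).

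XEN minus ESC shows what the established line carries, with the caution that the lines differ. Afp (6.46 ± 0.76, at least 25.3-fold), Ttr (9.71 ± 0.65, at least 282-fold), Spink1 (8.91 ± 0.60) and Proc (2.50 ± 0.62) were higher. Trf was lower (difference -4.05 ± 0.66, adjusted p = 1.46e-05), and so was Fgg (difference -2.27 ± 0.67, adjusted p = 0.0066), at least 1.74-fold. Fgg was not called with normexp (-0.31, adjusted p = 0.187) or in the authors' values (-0.48, adjusted p = 0.0804). Thus 6 of the 8 were called, where 52.1% of all genes were, 30.7% higher and 21.4% lower. Ahsg (-1.32 ± 0.63, adjusted p = 0.0844) and Gckr (-0.50 ± 0.44, adjusted p = 0.352) did not pass; Ahsg did without ESC 3 (-1.71, adjusted p = 0.0479), with the percentile over probes seen on all arrays (-1.71, adjusted p = 0.0306), and in fits of the array set (adjusted p = 0.0418) or these groups alone (adjusted p = 0.0318). XEN minus ESC and Diff minus ESC share the ESC arrays, so their values are set side by side only: Afp 6.46 and 4.39, Ttr 9.71 and 8.30, Trf -4.05 and -1.36.

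NACL minus 2iL asks whether stem cells kept in Activin, CHIRON and LIF already carry the genes. Of the 8 genes 1 was called, Trf, where 8.25% of all genes were, 4.12% higher and 4.13% lower. It was higher in NACL by 3.39 ± 0.61 (SE, n = 4 and 3; adjusted p = 0.00097), 10.5-fold. Within lines the difference was 2.80 in HVMC, 3.88 in E14 and 4.23 in E14-NanogGFP, and the dimmer probe gave 3.82 (adjusted p = 0.00266). Spink1 (1.62 ± 0.56, adjusted p = 0.0797) and Ahsg (-1.70 ± 0.59, adjusted p = 0.0801) did not pass. Spink1 passed without NACL 1 (2.23, adjusted p = 0.00624) or NACL 2 (1.96, adjusted p = 0.0478), both of line HVMC, and Ahsg passed without 2iL 2 (-2.50, adjusted p = 0.00803). Afp was well above background on none of the 7 arrays.

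**Figure D3:**
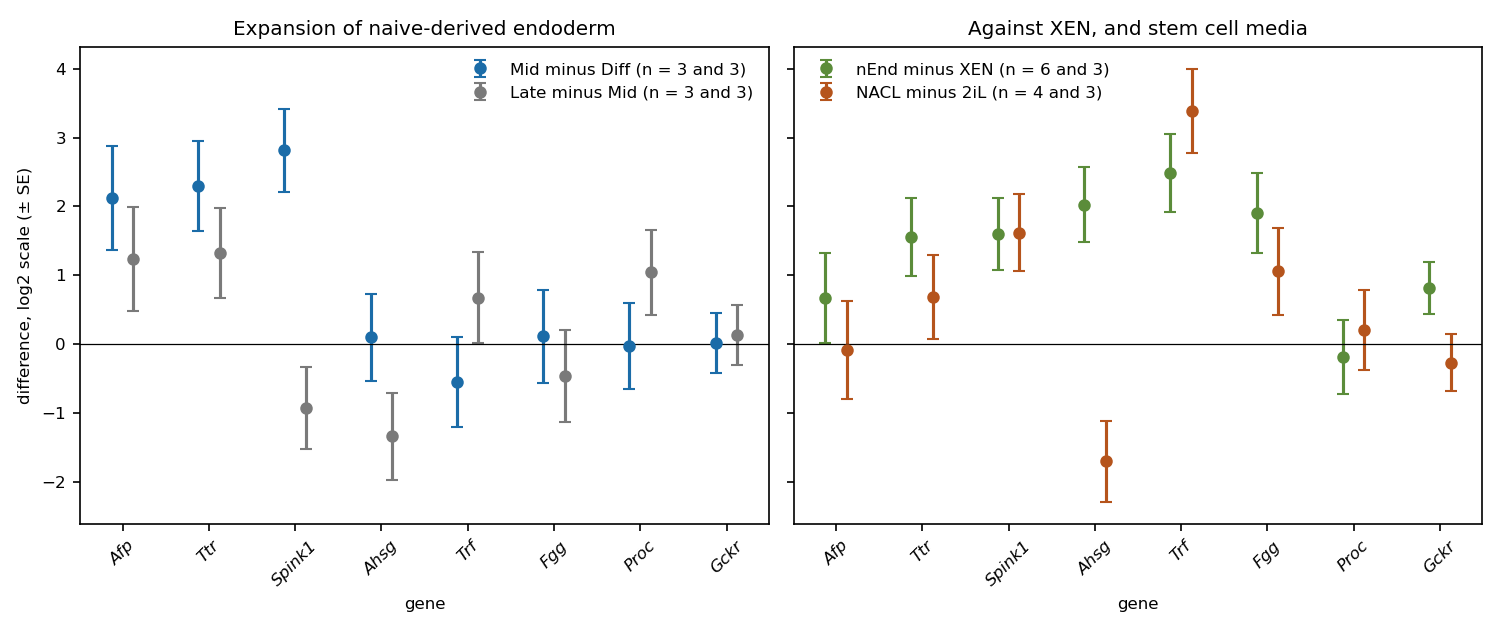
Differences on the log2 scale (vertical axis, with standard errors) for the 8 tested genes (horizontal axis), on the left for Mid minus Diff and Late minus Mid, on the right for nEnd minus XEN and NACL minus 2iL. Ttr and Spink1 rise by 2.30 and 2.82 from Diff to Mid, and Trf is the gene with the largest difference in both comparisons on the right.

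nEnd minus ADE sets endoderm of the 2 origins side by side, but the groups lie in different array sets, so set and group cannot be told apart. In these arrays 7 of the 8 genes were called, where 53.4% of all genes were, 26.8% higher and 26.6% lower. Ahsg (6.68 ± 0.50, at least 49.8-fold), Ttr (6.23 ± 0.52), Afp (4.83 ± 0.60) and Trf (1.86 ± 0.52) were higher in nEnd; with normexp Trf was not called (0.71, adjusted p = 0.0622). Gckr (difference -8.43 ± 0.35), Proc (difference -4.35 ± 0.49) and Fgg (difference -4.27 ± 0.53) were lower in nEnd. Spink1 differed by -0.15 ± 0.47 (adjusted p = 0.818), and its arrays overlapped.

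Other plasma proteins of the liver were looked at as a list of 40 genes, 30 of them tested; the list was made with earlier results of these data known. In Diff minus ESC 8 rose and 2 fell (23.5% and 18.9% over all genes), with a median difference of 0.20 against -0.04 over all genes. Those with the largest changes were Fgb (5.30 ± 0.90), Plg, the zymogen of plasmin (3.59 ± 0.81, at least 5.71-fold), and Serpinf2, which inhibits plasmin (3.37 ± 0.38, 1 of 3 ESC arrays well above background). From Diff to Mid 5 rose and 2 fell (12.3% and 16.8% over all genes), led by Igfbp1, Rbp4 and F2. Igfbp1, a binding protein of insulin-like growth factors, rose by 9.58 ± 0.92 (1 of 3 Diff arrays well above background). Rbp4, the retinol carrier that travels with transthyretin, rose by 5.58 ± 0.50, and F2, prothrombin, by 3.91 ± 0.59. In nEnd minus XEN 9 were higher and 1 lower (16.6% and 24.5% over all genes), and Igfbp1 was at least 555-fold higher. In ADE minus EpiSC 8 rose and 6 fell (16.9% and 20.7% over all genes). Ambp, the precursor of alpha-1-microglobulin, rose by 7.46 ± 0.88 (2 of 3 EpiSC arrays well above background) and Rbp4 by 6.59 ± 0.47. Cp, the copper carrier ceruloplasmin, fell by 4.01 ± 0.57 to background. In nEnd minus ADE 11 were higher and 5 lower (26.8% and 26.6% over all genes). F2 was higher by 6.77 ± 0.47 and F5, coagulation factor V, was lower (difference -7.87 ± 0.60). In NACL minus 2iL none rose and 2 fell (4.12% and 4.13% over all genes).

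Partners of protein C give the surroundings of Proc. All 9 on the list were tested. In Diff minus ESC 6 rose and none fell (23.5% and 18.9% over all genes). The median difference was 2.93 (2.22 with genes at background set at their bound). Procr, the endothelial receptor that presents protein C for activation, rose by 5.36 ± 0.62, and Tfpi, an inhibitor of tissue factor, by 4.21 ± 0.23. Thbd, thrombomodulin, which activates protein C together with thrombin, rose by 3.45 ± 0.77 (at least 4.65-fold) and again from Diff to Mid, by 4.56 ± 0.77. In XEN it stood at 4.24 ± 0.78 (SD, n = 3), and in ADE it was well above background on 0 of 4 arrays. F5, a substrate of activated protein C, stood at 2.78 ± 0.59 (SD, n = 4) in ADE and at -5.03 ± 1.28 in Mid. Thus in ADE, where Proc was highest, F5 was bright and Thbd was at background, and in nEnd the reverse held for F5 and Thbd. Over the list of 9, 7 were higher and 2 lower in nEnd minus ADE (26.8% and 26.6% over all genes), but these groups lie in different array sets. In ADE minus EpiSC 3 rose and 1 fell (16.9% and 20.7% over all genes).

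Of the fibrinogen and fibrinolysis list 9 of 13 genes were tested. In Diff minus ESC 6 rose and 1 fell (23.5% and 18.9% over all genes), and in ADE minus EpiSC 1 rose and 2 fell (16.9% and 20.7%). Plaur, the urokinase receptor, fell by 2.10 ± 0.43 in the latter and rose by 5.03 ± 0.46 in Diff minus ESC. Plat, tissue plasminogen activator, rose by 4.62 ± 0.58 from Diff to Mid.

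Genes of iron uptake and storage, the surroundings of Trf, were all 12 tested. In NACL minus 2iL, where Trf rose, 1 rose and 2 fell (4.12% and 4.13% over all genes). Slc39a14, a metal importer, rose by 4.04 ± 0.43 (adjusted p = 3.39e-06). Heph, a ferroxidase (mean level -5.63 in NACL and -3.63 in 2iL, adjusted p = 0.00209), and Steap3, a ferrireductase (difference -0.86 ± 0.26), were lower. Slc39a14 also rose in Diff minus ESC, by 5.52 ± 0.46, where Tfrc, the transferrin receptor, fell by 2.85 ± 0.48. Hamp, the liver's iron hormone hepcidin, rose from Diff to Mid, at least 15.4-fold, and stood at -0.62 ± 0.35 in Mid and -0.57 ± 0.72 in Late (SD, n = 3 each). It was well above background on 0 of 4 ADE arrays and 1 of 3 XEN arrays.

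Genes of the mature liver cell moved in both directions. Of 25 such genes 10 were too dim to test in any group, among them Otc and Cyp7a1. Of the 15 tested, 1 rose and 2 fell in Diff minus ESC (23.5% and 18.9% over all genes), none rose and 4 fell in Mid minus Diff (12.3% and 16.8%), and 2 rose and 1 fell in ADE minus EpiSC (16.9% and 20.7%). In nEnd minus XEN 5 were higher and 3 lower (16.6% and 24.5% over all genes), with a median difference of 0.49 against -0.03. There Adh1, an alcohol dehydrogenase, was at least 2.8-fold and Fbp1, an enzyme of gluconeogenesis, at least 3.71-fold higher, and Arg1, the arginase of the urea cycle, was lower (difference -3.23 ± 0.82). Ass1, an enzyme of the urea cycle, fell by 2.51 ± 0.44 in Diff minus ESC and by 3.25 ± 0.44 in Mid minus Diff. Among 12 tested genes of hexose handling, the surroundings of Gckr, 3 rose and 4 fell in ADE minus EpiSC (16.9% and 20.7% over all genes). There Slc2a1, a glucose transporter, fell by 2.27 ± 0.40.

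The transcription factors that drive such genes were measured too, as a list of 25 of which 20 were tested. In Diff minus ESC 10 rose and 3 fell (23.5% and 18.9% over all genes), and in ADE minus EpiSC 11 rose and 2 fell (16.9% and 20.7%). Hnf4a rose in both, by 6.06 ± 0.59 and 7.48 ± 0.55, as did Gata4 (6.61 ± 0.41 and 6.01 ± 0.38) and Foxa3. Foxa1 and Hhex were high in ADE, at 4.72 ± 0.26 and 4.86 ± 0.28 (SD, n = 4), against -2.22 ± 0.76 and 0.28 ± 0.42 (SD, n = 3) in Diff. Diff and ADE lie in different array sets. Foxa1 rose by 4.14 ± 0.62 in Diff minus ESC, from background, and by 4.12 ± 0.58 in ADE minus EpiSC. The direct test of those changes did not pass for Foxa1 (0.01 ± 0.85, adjusted p = 0.992). The mean level of Foxa1 at the start was -6.36 in ESC and 0.60 in EpiSC. Hhex rose by 6.05 ± 0.38 in ADE minus EpiSC, and its change differed from that in Diff minus ESC by -5.52 ± 0.55 (adjusted p = 6.66e-08). Between nEnd and XEN 2 of the 20 were called, where 41.1% of all genes were. Creb3l3, a secretory regulator of liver and gut, was higher in nEnd by 2.75 ± 0.43, and Gata4 was lower (difference -1.74 ± 0.35). Zhx2, which holds Afp down in adult liver, was well above background on 1 of 29 arrays, and Zbtb20, which does the same, had group means from -2.04 to -0.70 and was called in no comparison.

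**Figure D4:**
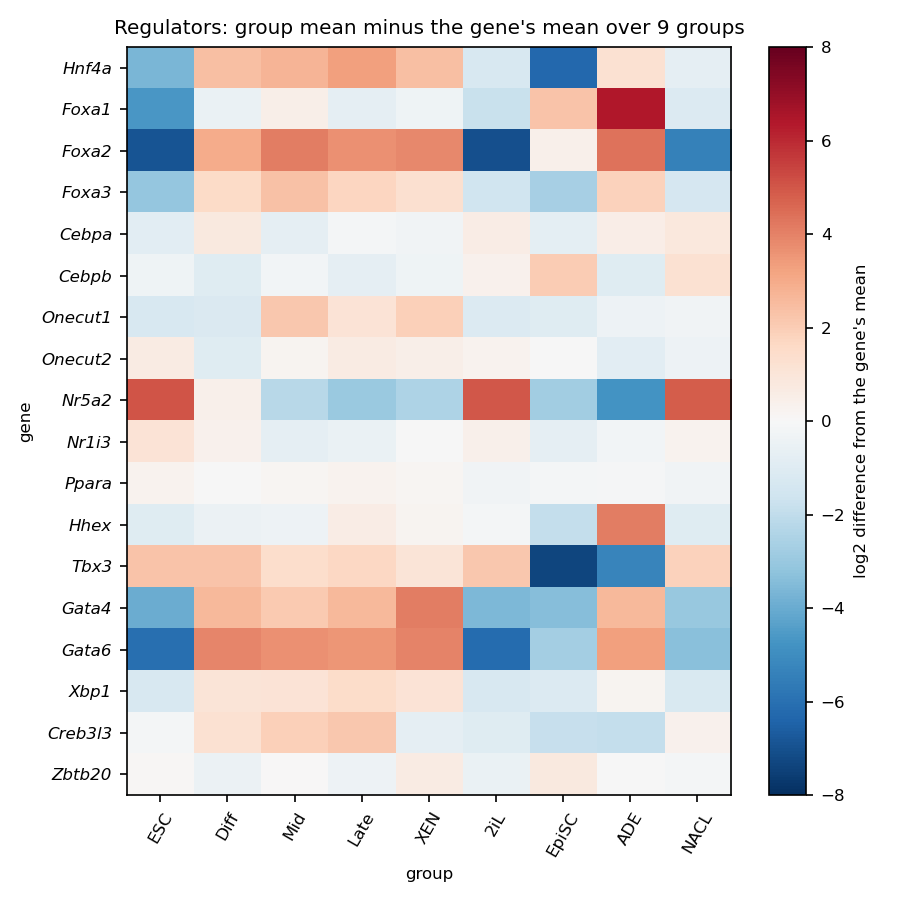
Mean level of 18 of the tested regulators (rows) in each group (columns), as the log2 difference from that gene's mean over the 9 groups (colour scale). Foxa1 and Hhex, at 6.41 and 4.11 in ADE, are at 2.28 or lower in all other groups. Gata4, Gata6 and Foxa2 are raised in Diff, Mid, Late, XEN and ADE.

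Genes whose group means ran most like each member were found by Pearson correlation over the 9 group means, and up to 3 are given for each. The genes are read on the same arrays with the same scaling, and no p is given. For Gckr they were Coch (0.991), Lhx1 (0.991) and Cbln4 (0.99), and for Proc they were Mob1b (0.987), Hhex (0.97) and Ovol2 (0.962). Lhx1 and Hhex are transcription factors of the anterior endoderm. For Ttr they were Tmem263 (0.991), Erlin2 (0.991) and Xbp1 (0.989), the last a regulator of the secretory pathway. For Afp they were Tgoln1 (0.992), Ugt2b34 (0.99) and Psg23 (0.989), and for Spink1 Ube2g2 (0.995), Fam122a (0.991) and Prss12 (0.99). For Trf they were Klk13 (0.982), Mterf1b (0.954) and Snhg12 (0.952), for Fgg Tspan15 (0.96) and Unc45a (0.96), and for Ahsg Cyp4f13 (0.955), Cdkn2c (0.939) and Ddhd2 (0.926). Gckr and Fgg correlated at 0.927 over the group means and Gckr and Ahsg at -0.878.

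Markers of the cell types that the cultures could hold differed between the groups, but not every list was highest in the group it is named for. Summed levels are given on the linear scale, where 1 is an array's 75th percentile. The 12 visceral endoderm markers include Afp and Ttr. All 12 were well above background on all arrays of Diff, Mid and Late. The number was 10 in XEN, 11 in ADE and 5 in ESC. Their sum was 811 to 1036 in Diff and 21.6 to 29.1 in ADE. Cultures without induction had sums of 75.3 to 128 in ESC, 33.1 to 99.3 in 2iL, 20.2 to 108 in NACL and 21.6 to 35.2 in EpiSC. Of 10 parietal endoderm markers 10 were measured on all arrays of Diff, Mid, Late and XEN and 9 in ADE, with sums of 1594 to 2786 in Diff and 446.7 to 567.8 in ADE. All 10 definitive and anterior endoderm markers were measured in ADE. Their sum was 560 to 703 in ADE, 24.4 to 34.1 in EpiSC, 70.5 to 108 in Diff and 105 to 242 in NACL. Cer1 and Gsc were at background in Mid and Late. All 8 pluripotency markers were still measured on all Diff arrays, and 7 of 8 in ADE. Their sum was 92 to 195 in Diff against 392 to 402 in ESC. Of 6 primed epiblast markers the sum was 395 to 579 in ADE, against 121 to 132 in EpiSC and 78.4 to 119 in Diff. Trophoblast markers had a sum of 72.5 to 204 in Diff and 65.4 to 105 in ESC. Of 6 blood markers no group summed above 1.7, and of 6 fibroblast markers the sum reached 17.6 in ADE, 25.1 in EpiSC and 18.2 in NACL. Gut epithelium markers had a sum of 20.2 to 43.4 in Diff and 3.56 to 6.01 in ADE. In undifferentiated cells that sum was 11.9 to 20.1 in ESC, 36.7 to 41.9 in 2iL, 19.1 to 78.4 in NACL and 1.28 to 2.32 in EpiSC. Among these markers Cdh17 was at background in every group. The part that the mixture of cell types played in the levels of the 9 genes was not tested.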

How the data were processed

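The authors deposited scanner files of Agilent Feature Extraction, which per the file headers hold the intensity of each spot with its background already subtracted, and marks for spots well above background. The submitters' processing notes give version 9.1, while the file headers give 11.0.1.1 (ESC, Diff, Mid, Late, XEN; slides 1 to 4, 2 scan days) and 12.0.1.1 (2iL, EpiSC, ADE, NACL; slides 5 and 6, 1 scan day) and build mm9. They also deposited a series matrix of unstated scale, read as log2 because each column followed its array's log2 signal (Pearson 0.909 to 0.937); its column medians were 5.94 to 5.949, genes were not centred, and its log base is unknown. It served as an alternative.

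Irregular spots (132 to 243 of 59305 per array) were left out, spots of a probe averaged, and each array's 75th percentile over non-control probes subtracted (137 to 323 intensity units); 0 probes were saturated. Of 55681 probes 27636 were named through their accession (RefSeq, GRCm38.p6, for names only), and the brightest probe stood for a gene; of the 9 genes only Trf had another. A gene was tested if its probe was well above background throughout 1 group or more. One limma model of 9 group means (limma 3.58.1, R 4.3.3, data.table, version 1.17.8; checked on simulated data) gave all differences. Files were read with Python 3.11.15, pandas 2.3.3 and numpy 2.4.6, and plots drawn with matplotlib 3.10.9. The number of arrays limits the precision.

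The members, lists and comparisons were chosen with earlier results of these data known. Named besides the 9 genes are, per list and comparison, the 3 genes called with the largest difference, any of the listed regulators, and the 3 genes closest in pattern to each member. A few genes that this rule would name are not reported here. Deviations of Mid and Late arrays sharing a number correlated at 0.218, 0.129 and 0.141, and each replicate is its own round of differentiation. These numbers were taken as pairs in alternative fits only. The model behind the differences given in the results has no pairs and treats all arrays as independent. For EpiSC and ADE the correlations were 0.306, -0.124 and 0.315, and for the other groups checked -0.103 to 0.155. Only Mid and Late, with all 3 at 0.129 or higher, were taken to pass this pairing check. Alternatives were other scalings, background steps, filters, probe choices, blocks and sets of arrays, and leaving out each array.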

Additional observations from a re-analysis of the deposited data

Results flagged for a closer look

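In groups of 4 arrays, the gap of the highest or lowest array to its nearest neighbour was set against the range of the group for 18 gene and group pairs; chance marks about 1 in 20. For Ahsg in NACL, NACL 3 (level -0.51) stood apart above the other 3 arrays, with a gap of 0.874 of the range, although that range was narrow. For Proc in NACL, NACL 2 (level -2.49) stood below the others, with a gap of 0.85 of the range; it was the array with the fewest probes well above background, 50.1%.

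The response to endoderm induction differed by origin, in a direct test of Diff minus ESC against ADE minus EpiSC, for 6 of the 8 genes tested. The difference was 6.23 for Ahsg, 4.04 for Ttr and 2.52 for Spink1, which gained more, or lost less, from naive cells. The call of Spink1 was lost without Diff 1, with normexp and in the authors' values. Spink1 started from a mean level of 1.72 in EpiSC and -3.30 in ESC. It was -5.39 for Proc, -4.07 for Fgg and -6.85 for Gckr, which gained more from primed cells. Each induction was measured within its own array set, so an offset between sets that is equal in all groups of a set cancels. Media, days of culture and origin differ together between these inductions and cannot be told apart.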

How the results depend on the processing

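No difference of the 8 tested genes turned its sign under any alternative and became or stayed called in the other direction. When only probes well above background on all arrays of both sides were kept, genes with a silent side left the test, and the genes called numbered 2 in Diff minus ESC, 3 in nEnd minus XEN, 2 in XEN minus ESC, 4 in ADE minus EpiSC, 4 in nEnd minus ADE and 3 in the difference of the inductions. In Late minus Mid 1 gene, Ttr, was called with normexp, in the series matrix values and in a fit of those groups alone. In NACL minus 2iL 2 genes were called, Spink1 joining Trf after centring on the median, after quantile normalization and with slide as a random block, and Ahsg joining it with normexp and in the series matrix values; the cause was not tested. Leaving out 1 array gave 3 to 4 genes in Diff minus ESC, 1 to 3 in Mid minus Diff, 0 in Late minus Mid, 3 to 5 in nEnd minus XEN, 6 to 7 in XEN minus ESC, 6 to 7 in ADE minus EpiSC, 1 to 2 in NACL minus 2iL, 7 in nEnd minus ADE and 5 to 6 in the difference of the inductions. With Mid and Late numbers as pairs, entered as a random block chosen after the data were seen, Afp was not called in Mid minus Diff (adjusted p = 0.0518) and no other count changed. With the replicate number as a replicate block over each array set, 5 genes were called in Diff minus ESC (Ahsg added), 2 in Mid minus Diff (Afp lost), 0 in Late minus Mid, 6 in nEnd minus XEN (Gckr added), 7 in XEN minus ESC (Ahsg added), 7 in ADE minus EpiSC and 6 in the difference of the inductions; only Mid and Late pass the pairing check. Within each scan day and slide that held both sides of a comparison, the called genes kept their sign, except Ttr in nEnd minus XEN on scan day 2. Centring arrays on the median moved the median difference of all genes from -0.04 to 0.32 in Diff minus ESC and from 0.04 to 0.68 in XEN minus ESC, and the share of higher calls from 55.4% to 74.1% and from 58.9% to 78.4%; in nEnd minus XEN the share was 40.4% at first, 24.04% after median centring and 59.5% with the percentile over probes seen on all arrays. Afp, Alb, Ttr, Fgg and Ahsg are limited by background where no array is well above it.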
